A study of Mus musculus with 19 samples.

Results

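The genes described here are 10 feedback regulators and transcriptional targets of the ERK signalling cascade: Dusp4, Dusp6, Spry2, Spry4, Spred1, Spred2, Etv4, Etv5, Egr1 and Fos. They were chosen by name, with no threshold on measured values, and all 10 passed the filter on low values, among 14972 genes tested of 54119 in the summed table. RNA was measured in naive mouse embryonic stem cells (mESC) and in the epiblast-like cells (EpiLC) derived from them, which model the epiblast after implantation. The mESC were kept in N2B27 medium with LIF, a GSK3 inhibitor and a MEK1/2 inhibitor, and EpiLC were made over 5 days with FGF5 and Activin A and no LIF. Whether both inhibitors were withdrawn in EpiLC medium is not given in the labels. The series asks whether the DNA demethylase TET3 is needed for this transition. Wild-type XX cells were of the LF2 line and wild-type XY cells of the E14 line, so that sex and cell line cannot be told apart. The mutants were Tet3-/- cells of the LF2 line. Each wild-type line had 3 libraries in either state. The mutants had 4 libraries as mESC, with numbers 1 to 4, and 3 as EpiLC, with numbers 1, 3 and 4. How the mutant libraries relate to clones or cultures is not given in the sources used here, so p-values measure only the spread between these libraries, which may be technical.

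As background, growth factors such as FGF activate RAS, which activates the kinases RAF, MEK and ERK in turn, and active ERK switches on transcription of its own targets. Dual-specificity phosphatases (Dusp4 in the nucleus, Dusp6 in the cytoplasm) remove the activating phosphates from ERK, and the Sprouty (Spry) and SPRED proteins act upstream on RAS and RAF, so these genes form a negative feedback loop. Etv4 and Etv5 encode ETS transcription factors of the PEA3 group, and Egr1 and Fos are immediate early genes, which respond to ERK within minutes. FGF and ERK signalling moves mouse embryonic stem cells out of naive pluripotency, and MEK inhibition holds them in it.

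Sequences are shown for the members on which the results below turn. The first is the exon that separates the Etv5 transcripts. Etv5 lies on the minus strand of chromosome 16 (GRCm38, 22381309 to 22439719). GENCODE M21 gives the transcripts Etv5-201 (3975 bases) and Etv5-203 (3773 bases) 13 exons each and the same start codon. Etv5-203 lacks the first exon of Etv5-201 (22439517 to 22439719) and has a coding exon of 54 bases, exon 5, that Etv5-201 lacks (chr16:22421819-22421872, minus strand); 54 is a multiple of 3, which keeps the reading frame.
Etv5-203 exon 5: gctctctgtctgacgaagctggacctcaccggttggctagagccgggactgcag

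RefSeq promoter windows (GRCm38.p6) reach from 250 bases before a gene's start to 50 bases after it, and 6 of the 10 members have at least 1, with 7 windows in all. Dusp4, Spry4, Etv4 and Egr1 have none in that table. Below, the parts outside every GENCODE exon are printed 5′ to 3′ on the strand of the gene for Dusp6, the member with the largest rise on the log2(scaled TPM + 1) scale, for Fos, the member that differed most between XX and XY EpiLC, and for both RefSeq starts of Etv5, the member that fell. Capitals mark GGAAGT, the core that ETS factors bind, and TGACGT, the CRE half-site that CREB and ATF factors bind, on either strand.
Dusp6 (chr10:99262981-99263230, plus strand): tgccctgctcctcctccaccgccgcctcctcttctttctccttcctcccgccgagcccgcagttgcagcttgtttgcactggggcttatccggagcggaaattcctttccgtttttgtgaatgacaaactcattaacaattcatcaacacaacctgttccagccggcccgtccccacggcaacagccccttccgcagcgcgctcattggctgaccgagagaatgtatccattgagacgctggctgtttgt
Fos (chr12:85473640-85473889, plus strand): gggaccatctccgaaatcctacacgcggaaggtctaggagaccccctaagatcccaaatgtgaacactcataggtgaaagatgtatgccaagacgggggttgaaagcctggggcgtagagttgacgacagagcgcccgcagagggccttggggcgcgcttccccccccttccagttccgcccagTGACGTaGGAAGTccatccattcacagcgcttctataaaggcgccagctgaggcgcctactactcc
Etv5, upstream start (chr16:22439720-22439820, minus strand): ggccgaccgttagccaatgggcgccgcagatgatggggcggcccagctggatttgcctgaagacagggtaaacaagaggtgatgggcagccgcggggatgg
Etv5, downstream start (chr16:22438369-22438618, minus strand): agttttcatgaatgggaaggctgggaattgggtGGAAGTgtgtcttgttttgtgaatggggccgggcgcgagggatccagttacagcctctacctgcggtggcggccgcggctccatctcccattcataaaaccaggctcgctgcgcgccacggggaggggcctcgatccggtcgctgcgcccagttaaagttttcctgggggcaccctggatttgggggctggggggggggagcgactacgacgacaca
In whole windows of 300 bases, GGAAGT occurred in those of Fos, Spred2 and the downstream start of Etv5, and TGACGT in those of Fos and Spred2. Over all 32851 windows of that length, 23.8% held GGAAGT and 7.51% held TGACGT on either strand. The AP-1 motif TGANTCA (7.81% of all windows) and the CArG box (1.63%) occurred in no window of the members. The downstream Etv5 window held GGAAGT 2 times, 1 of them in the bases not printed. The matches do not overlap each other, and a match describes the letters only.

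The deposited values were TPM, transcript abundances corrected for length and scaled to a common total, and their depth is unknown. From 23.5% to 43.7% of TPM in a library came from the non-coding RNA Rn7s1 of the signal recognition particle, and protein-coding genes held from 21.4% to 46.7%, so each library was divided by a median-of-ratios factor, between 0.595 and 1.70, and levels are given as scaled TPM. Differences between groups are log2 fold changes of scaled TPM plus a pseudocount of 1, with standard errors (SE), from limma fitted over all genes, and a gene was called at a Benjamini-Hochberg adjusted p under 0.05. This scale understates the change of low genes. The 8 naive pluripotency markers summed to between 453 and 631 scaled TPM in the mESC libraries and to between 36.1 and 92.1 in the EpiLC libraries. Tet3 was not called between Tet3-/- and XX cells: it had 0.668 ± 0.134 (SD, n = 4) against 0.933 ± 0.295 (SD, n = 3) scaled TPM in mESC and 1.15 ± 0.151 (SD, n = 3) against 1.74 ± 0.288 (SD, n = 3) in EpiLC, limma adjusted p 0.44 and 0.115. Whether the deletion removes the measured exons is not given in the sources used here, so this level does not check the mutant label.

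A pair of libraries stood apart from their groups. In XX mESC, replicate 2 differed from replicates 1 and 3 with an SD of log2 differences of 0.566 and 0.610, against 0.174 between replicates 1 and 3. In Tet3-/- EpiLC, library 3 differed from libraries 1 and 4 with an SD of 0.615 and 0.588, against 0.237 between those. Library 3 was the highest of its group for 9 of the 10 members and the lowest for Fos. Its 6 mesendoderm markers summed to 103 scaled TPM, against 4.14 and 5.17 in libraries 1 and 4; the part of such cells in the results was not tested. Counts are therefore also given without both libraries, an alternative added after seeing the data. The fit shares its estimate of spread over all groups, so this also changed contrasts that hold neither library. In the XY transition 60.1% of all genes were then called, against 51.4% with all libraries.

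**Figure D1:**
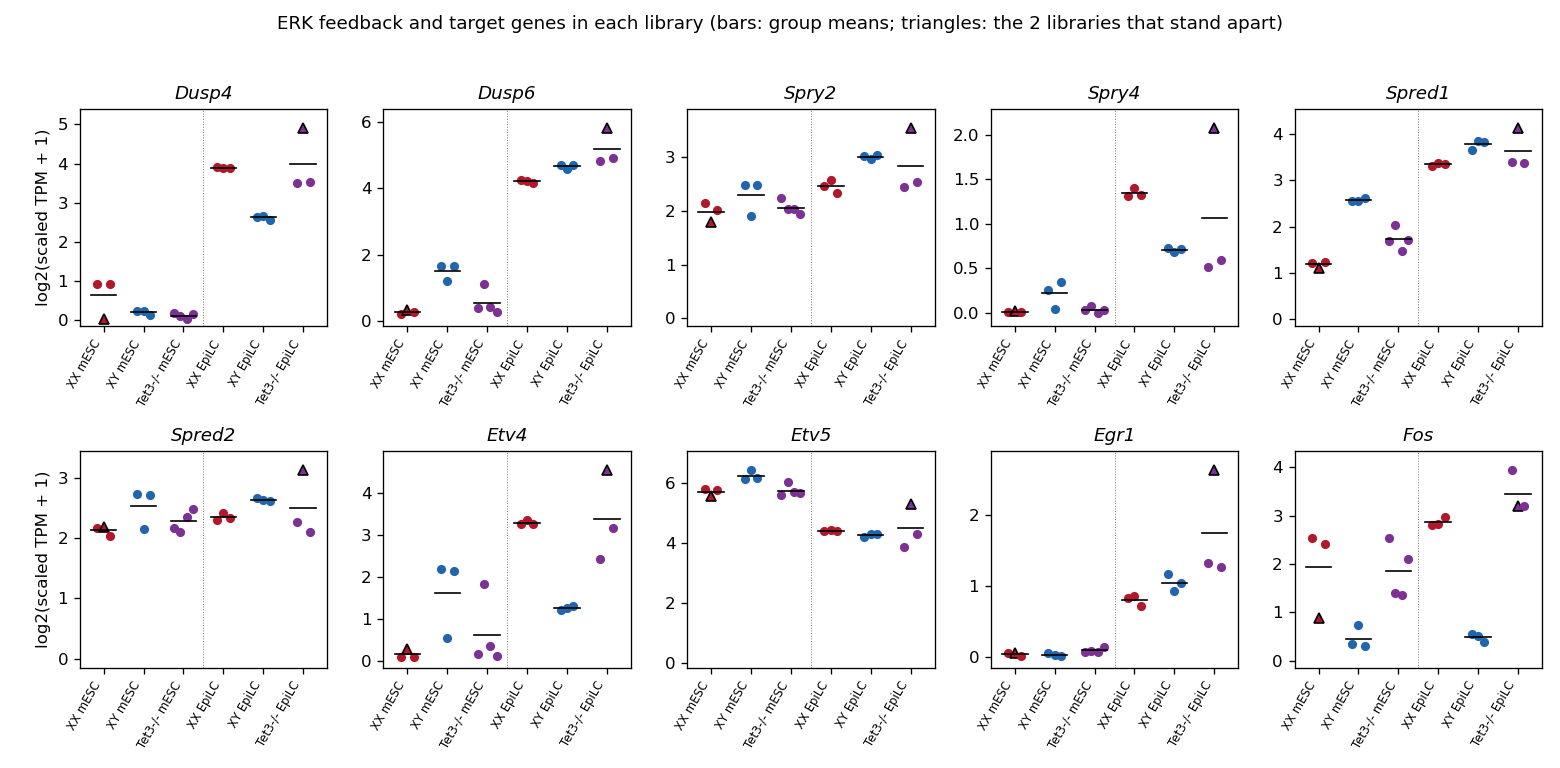
Level of each of the 10 genes in each of the 19 libraries, as log2(scaled TPM + 1); bars are group means, and triangles mark XX mESC replicate 2 and Tet3-/- EpiLC library 3. Dusp4, Dusp6, Spry2, Spry4, Spred1 and Egr1 were higher in every EpiLC library than in any mESC library of the same genotype. Etv5 was lower, and Fos was low in all 6 XY libraries. Of all genes tested, 61.2%, 64.7% and 50.3% had no overlap between the states in XX, XY and Tet3-/- cells.

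From mESC to EpiLC, Dusp6, Dusp4, Spred1 and Egr1 rose in each genotype, and Etv5 fell in each. Dusp6 and Dusp4 had the largest values on the log2 scale with a pseudocount of 1, which holds down low genes: by the ratio of mean scaled TPM, Spry4 led in XX cells (174.5, against 84.7 for Dusp6), Egr1 in XY cells (42.5, against 12.8) and Dusp4 in Tet3-/- cells (189.3, against 72.8). In XX cells 7 of the 10 rose and 1 fell, in XY cells 5 rose and 1 fell, and in Tet3-/- cells 8 rose and 1 fell. Of all genes tested, 50.4%, 51.4% and 52.4% were called in these 3 transitions, in either direction. Libraries of the 2 states did not overlap for 10, 7 and 9 of the 10 members, and for 61.2%, 64.7% and 50.3% of all genes tested. The median log2 fold change of the members was 1.13, 0.60 and 1.63, against -0.02, -0.00 and 0.00 over all genes tested. Without both libraries that stood apart, 7 rose and 1 fell in XX and 8 rose and 1 fell in Tet3-/- cells, with 55.0% and 58.2% of all genes called. Because RNA was taken from whole cultures, more RNA per cell and more cells of a type with that RNA cannot be told apart.

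Among the phosphatases, Dusp6 (chromosome 10, 99263231 to 99267489) was near the lower limit of the scale in XX mESC, with 0.155, 0.259 and 0.207 scaled TPM, and had 17.9, 17.6 and 17.0 in XX EpiLC. XY mESC had 2.19, 1.31 and 2.17 and XY EpiLC 25.2, 22.7 and 24.7. Tet3-/- mESC had 0.310, 1.16, 0.351 and 0.214, and Tet3-/- EpiLC 27.4, 54.7 and 29.0. Groups did not overlap in any genotype, and the log2 rise was 3.94 ± 0.23 (SE; limma adjusted p 8.28e-10), 3.14 ± 0.23 (9.8e-09) and 4.62 ± 0.22 (3.52e-11) in XX, XY and Tet3-/- cells.

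Dusp4 (chromosome 8, 34807297 to 34819894) had 0.916, 0.0267 and 0.892 scaled TPM in XX mESC and 14.1, 13.7 and 13.9 in XX EpiLC. It had 0.184, 0.178 and 0.0898 in XY mESC and 5.24, 5.34 and 4.93 in XY EpiLC. The Tet3-/- libraries had 0.132, 0.0719, 0.0255 and 0.121 in mESC and 10.3, 28.8 and 10.6 in EpiLC. Every EpiLC library was above every mESC library of its genotype, and the low XX mESC value is that of replicate 2. The log2 rises were 3.27 ± 0.28, 2.42 ± 0.28 and 3.86 ± 0.27 (SE; limma adjusted p 8.82e-08, 2.49e-06 and 4e-09).

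The Sprouty gene Spry4 had 0.00357, 0.0133 and 0.00953 scaled TPM in XX mESC and 1.48, 1.64 and 1.5 in XX EpiLC. XY mESC had 0.198, 0.0323 and 0.275 and XY EpiLC 0.652, 0.609 and 0.641. Tet3-/- mESC had 0.0199, 0.0530, 0 and 0.0180, and Tet3-/- EpiLC 0.427, 3.23 and 0.510, so library 3 held most of the signal of that group. The log2 rise was called in XX cells, at 1.33 ± 0.27 (SE; limma adjusted p 0.000608), and in Tet3-/- cells, at 1.03 ± 0.25 (0.0025), where it was 0.52 (limma adjusted p 0.000141) without both libraries that stood apart. In XY cells it was 0.49 ± 0.27 (0.142) although the groups did not overlap. This XY value of Spry4 was called with a pseudocount of 0.1 (1.58, limma adjusted p 0.0206) and with only the groups compared (0.49, 0.0048). Spry2 (chromosome 14, 105891947 to 105896819) was already present in mESC, at 3.41, 2.45 and 3.06 scaled TPM in XX, 4.59, 2.76 and 4.59 in XY and 3.72, 3.11, 3.08 and 2.86 in Tet3-/- cells. EpiLC had 4.52, 4.99 and 4.05 in XX, 7.15, 6.82 and 7.24 in XY and 4.44, 10.7 and 4.80 in Tet3-/- cells. Its log2 fold changes were smaller than those of the phosphatases, 0.48 ± 0.23 (SE; limma adjusted p 0.0897), 0.72 ± 0.23 (0.0136) and 0.78 ± 0.21 (0.00529); without both libraries that stood apart the XX value was 0.38 (0.0439) and the Tet3-/- value 0.43 (0.0186). The XX value of Spry2 was not called without XX mESC replicate 2 alone (0.38). The XY call of Spry2 was lost without XY mESC replicate 2 (0.53, 0.0786), and its Tet3-/- call without scaling (0.66, 0.161).

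The SPRED genes parted: Spred1 rose in every genotype and Spred2 was called in none. Spred1 (chromosome 2, 117121374 to 117182279) had 1.32, 1.17 and 1.34 scaled TPM in XX mESC and 8.88, 9.35 and 9.25 in XX EpiLC. XY cells started higher, at 4.88, 4.83 and 5.15, and reached 11.6, 13.4 and 13.1. Tet3-/- cells had 2.21, 3.06, 1.77 and 2.28 in mESC and 9.47, 16.4 and 9.31 in EpiLC. The log2 rises of Spred1 were 2.16 ± 0.17, 1.20 ± 0.17 and 1.90 ± 0.16 (SE; limma adjusted p 1.96e-08, 1.45e-05 and 3.12e-08). Spred2 (chromosome 11, 19924375 to 20024026) ranged from 3.1 to 5.6 scaled TPM in mESC and from 3.3 to 7.76 in EpiLC. Its transitions had values of 0.22 ± 0.21, 0.11 ± 0.21 and 0.22 ± 0.20 on the log2 scale (SE; limma adjusted p 0.403, 0.701 and 0.363).

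Etv4 (chromosome 11, 101769742 to 101785371) went from 0.0785, 0.222 and 0.0698 scaled TPM in XX mESC to 8.5, 9.26 and 8.49 in XX EpiLC. Tet3-/- mESC had 0.135, 2.57, 0.279 and 0.0887, and Tet3-/- EpiLC 4.35, 22.3 and 7.91. In XY cells the groups overlapped, with 3.53, 0.469 and 3.44 in mESC and 1.32, 1.43 and 1.49 in EpiLC. The log2 fold change was 3.12 ± 0.51 (SE; limma adjusted p 8.61e-05) in XX and 2.75 ± 0.48 (0.000132) in Tet3-/- cells, and -0.36 ± 0.51 (0.585) in XY cells.

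Egr1, the zinc finger immediate early gene, had at most 0.1 scaled TPM in any mESC library. It had 0.789, 0.812 and 0.642 in XX EpiLC, 1.25, 0.902 and 1.07 in XY EpiLC, and 1.52, 5.25 and 1.41 in Tet3-/- EpiLC. All EpiLC libraries were above all mESC libraries, and the log2 rises were 0.76 ± 0.24, 1.01 ± 0.24 and 1.66 ± 0.22 (SE; limma adjusted p 0.0145, 0.00207 and 1.05e-05). The XX call of Egr1 was lost without scaling (0.73, 0.106).

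Fos (chromosome 12, 85473890 to 85477273), which encodes a subunit of AP-1, had 4.77, 0.849 and 4.31 scaled TPM in XX mESC and 6.02, 6.10 and 6.83 in XX EpiLC. The XX rise of Fos was 0.93 ± 0.37 (SE, limma adjusted p 0.0469), near the limit for a call. It was 0.40 (0.273) without both libraries that stood apart, and 0.40 (0.284) without XX mESC replicate 2 alone. Without any 1 of the 3 XX EpiLC libraries the value was 0.88 to 0.96 and not called (adjusted p 0.0819 to 0.111). The call was also lost with a pseudocount of 0.1 (1.23, 0.0676), without a filter (0.93, 0.107) and with only the groups compared (0.93, 0.136). Tet3-/- cells had 4.81, 1.64, 1.56 and 3.29 in mESC and 14.4, 8.14 and 8.19 in EpiLC, a rise of 1.60 ± 0.35 (0.000993). XY cells had 0.259, 0.668 and 0.229 in mESC and 0.455, 0.423 and 0.307 in EpiLC, a value of 0.02 ± 0.37 (0.97).

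**Figure D2:**
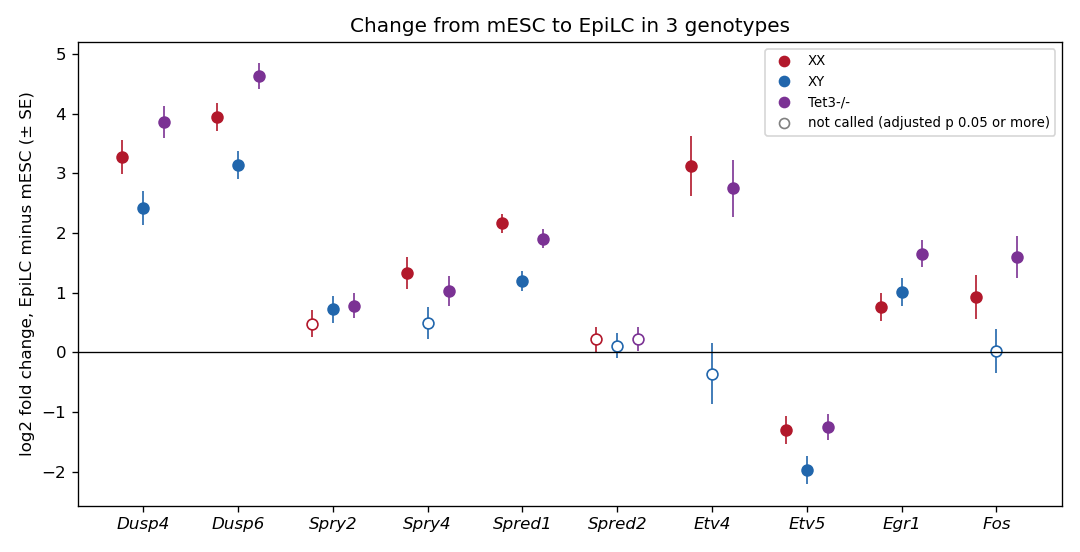
Log2 fold change of each gene from mESC to EpiLC with its standard error, in XX, XY and Tet3-/- cells; filled points were called by limma. Etv5 lies below 0 in all 3 genotypes; in XY cells Etv4 lies at -0.36 and Fos at 0.02.

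Etv5 was the most abundant member in mESC and moved the other way. It had 53.9, 46.4 and 53.2 scaled TPM in XX mESC and 19.8, 20.4 and 20.2 in XX EpiLC. XY cells had 69.1, 84.3 and 69.6 in mESC and 17.1, 18.6 and 18.6 in EpiLC, and Tet3-/- cells 47.4, 63.5, 50.9 and 48.8 in mESC and 13.5, 38.1 and 18.7 in EpiLC. No EpiLC library reached the lowest mESC library of its genotype, and the log2 fold changes were -1.30 ± 0.24, -1.98 ± 0.24 and -1.25 ± 0.22 (SE; limma adjusted p 0.000262, 3.33e-06 and 0.000171).

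The transcripts of Etv5 were then examined, a step chosen after their values were seen. Etv5-203, which carries the exon of 54 bases printed above, held 69.1%, 78.9% and 75.5% of Etv5 TPM on average in XX, XY and Tet3-/- mESC, and 1.51%, 3.34% and 0.410% in EpiLC. Its level was 37.0, 33.8 and 34.9 scaled TPM in the XX mESC libraries and 0, 0.776 and 0.147 in the XX EpiLC libraries. In XY cells it was 52.2, 70.7 and 53.9 in mESC and 0, 0.639 and 1.22 in EpiLC, and in Tet3-/- cells 37.8, 43.9, 37.7 and 38.6 in mESC and 0.0931, 0 and 0.101 in EpiLC. The fall of Etv5-203 was -4.84 ± 0.24, -5.27 ± 0.24 and -5.25 ± 0.22 on the log2 scale (SE; limma over 36116 transcripts, adjusted p 1.84e-10, 5.3e-11 and 2.13e-11).

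Etv5-201 was called in none of the transitions. It had 15.9 ± 2.96 (SD, n = 3) scaled TPM in XX mESC and 19.6 ± 0.249 (SD, n = 3) in XX EpiLC, 15.4 ± 1.59 (SD, n = 3) and 17.3 ± 0.296 (SD, n = 3) in XY cells, and 13.1 ± 4.65 (SD, n = 4) and 23.1 ± 13.0 (SD, n = 3) in Tet3-/- cells. On the log2 scale it moved by 0.30 ± 0.29, 0.17 ± 0.29 and 0.70 ± 0.27 (SE; limma adjusted p 0.456, 0.7 and 0.0545). The Tet3-/- value was called without Tet3-/- mESC library 2 (0.90, 0.0144) and without Tet3-/- EpiLC library 1 (1.01, 0.00832). Over all transcripts, 35.2%, 35.1% and 35.3% were called in the XX, XY and Tet3-/- transitions. The split between transcripts that share most of their exons is the estimate of the program that made the TPM values, and no read over the junctions of the 54-base exon was examined here. Neither RefSeq start printed above coincides with the annotated first base of Etv5-203 (22436514).

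**Figure D3:**
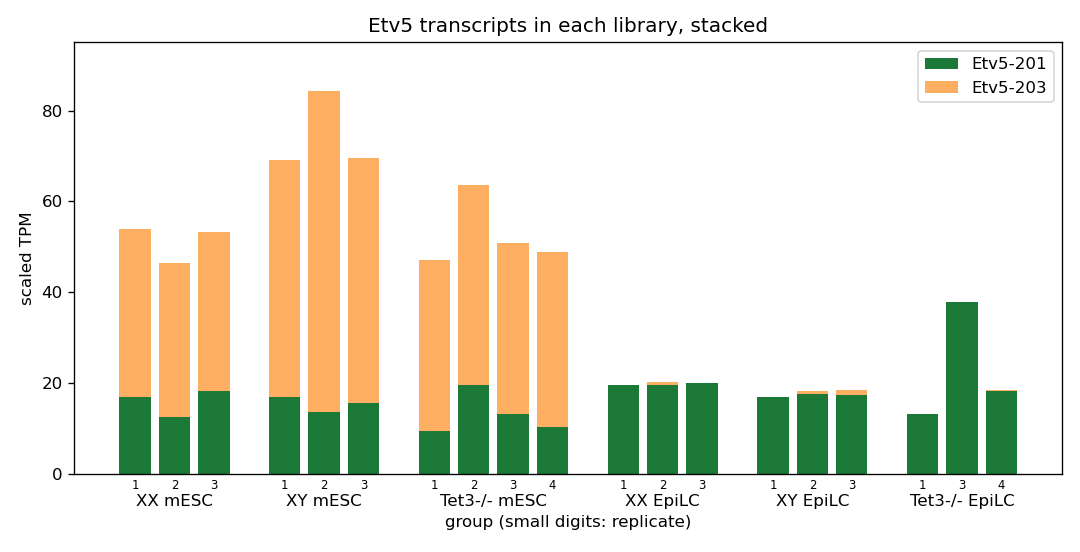
Scaled TPM of Etv5-201 (lower, green) and Etv5-203 (upper, orange) stacked for each library, with the replicate number under each bar; 3 further Etv5 transcripts, none above 0.33 scaled TPM, are left out. Etv5-203 makes up most of the bar in all 10 mESC libraries and is at most 1.22 scaled TPM in the 9 EpiLC libraries.

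Between the wild-type lines, which differ in sex and line together, Fos was higher in XX cells and Dusp6, Spred1 and Etv4 were lower in mESC; in EpiLC, Fos, Etv4 and Dusp4 were higher in XX cells. In mESC 1 member was higher in XX and 3 lower, with 31.3% of all genes called. In EpiLC 3 were higher and 0 lower, with 33.8% of all genes called, and the groups overlapped for none of the 10; they did not overlap for 65% of all genes tested. Without both libraries that stood apart, 2 were higher and 5 lower in mESC, with 46.4% of all genes called. Without XX mESC replicate 2 alone, 5 members were called in mESC, with 40.2% of all genes called. The share of calls higher in XX EpiLC depended on the scaling: on deposited TPM without it, 2 members were higher and 3 lower. Of all genes 47.2% were then called, and only 11.1% of those calls were higher in XX EpiLC, so most called genes were lower. The summed formative markers were 62.3 to 66.1 scaled TPM in XX EpiLC and 260 to 267 in XY EpiLC. The primitive endoderm list, of which 4 of 8 genes were tested, summed to 135 to 138 and 47.6 to 52.0. Only 2 of its genes had a mean of at least 1 scaled TPM in XX EpiLC, and 3 in XY EpiLC. With so few genes, these endoderm sums do not identify a cell type. The part of these marker differences in the results was not tested.

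Fos was 1.49 ± 0.37 log2 units higher in XX than in XY mESC (SE; limma adjusted p 0.00598) and 2.39 ± 0.37 higher in EpiLC (0.000111), and the XX libraries lay above the XY libraries in both states. Dusp6 was lower in XX mESC by a log2 value of -1.25 ± 0.23 (0.000631), Spred1 by -1.39 ± 0.17 (1.15e-05) and Etv4 by -1.46 ± 0.51 (0.0379). The Etv4 call was lost, at -1.19 to -1.44, without any 1 of XX mESC replicates 1 and 3 and XY mESC replicates 1 and 3 (adjusted p 0.0927 to 0.147), and at -1.44 to -1.54 without scaling, rescaled over protein-coding genes, without a filter or with only the groups compared (0.0686 to 0.0935). With only the groups compared the mESC value of Fos was 1.49 and not called (0.0787). In EpiLC Etv4 was 2.02 ± 0.51 higher in XX cells (0.0057). Dusp4 was 1.27 ± 0.28 higher in XX EpiLC (0.00241), a value that was 0.63 (0.186) without scaling.

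Whether a member changed by a different amount in XX than in XY cells was tested directly. It was called for Etv4, at 3.48 ± 0.72 log2 units (SE; limma adjusted p 0.00215), and for Spred1, at 0.96 ± 0.23 (0.00698), both rising more in XX cells; 23.7% of all genes were called. Without scaling Spred1 had 0.41 (0.584), and with TPM rescaled over protein-coding genes 0.80 (0.146). Without both libraries that stood apart 6 members were called, all higher in XX, with 37.5% of all genes called. The added members were Dusp4, Dusp6, Spry4 and Etv5. Leaving out each library in turn gave 2 called members. For Fos the difference was 0.91 ± 0.52 (0.238).

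Between Tet3-/- and XX mESC, 0 of the 10 members were called by limma, with 3.18% of all genes called. At an unadjusted p under 0.05 there were 1 of the 10 members and 2238 of all 14972 genes. Without XX mESC replicate 2 and Tet3-/- EpiLC library 3, Spred1 was higher in the mutants (0.50, limma adjusted p 0.00894) and Dusp4 lower (-0.81, 1.95e-05). In that set 17.8% of all genes were called. Without XX mESC replicate 2 alone neither gene was called, with Dusp4 again at -0.81 and 10.6% of all genes called. In Tet3-/- EpiLC, Dusp6 was 0.97 ± 0.23 (SE; limma adjusted p 0.0212) and Egr1 0.95 ± 0.24 (0.0286) higher than in XX EpiLC, 2 of 10 members, with 5.46% of all genes called. All 3 mutant libraries lay above all XX libraries for both genes; the groups did not overlap for 29% of all genes tested. Naive markers summed to 36.1 to 50.6 scaled TPM in Tet3-/- and 87.8 to 92.1 in XX EpiLC, and formative markers to 83.2 to 143 and 62.3 to 66.1. The 6 neural markers, of which 2 were tested, summed to 35.0 to 59.7 and 24.1 to 25.8. The part of these marker differences in the results was not tested.

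Without scaling the log2 values were 0.86 and 0.91 and not called (adjusted p 0.437 and 0.278), and without any 1 of the 3 XX EpiLC libraries they were 0.90 to 0.98 and not called (0.0603 to 0.115). Without both libraries that stood apart, Egr1 was 0.50 higher (limma adjusted p 0.00322) and Dusp6 0.66 higher (0.0624). Spry4 was then lower in the mutants, at -0.79 (0.000146), where it had been -0.28 (0.644) with all libraries. Dusp4 was lower, at -0.38 (0.00672), where it had been 0.08 (0.94). In that set 6.99% of all genes were called. Without Tet3-/- EpiLC library 3 alone, Dusp4 was again at -0.38 but not called (limma adjusted p 0.308), with 4.78% of all genes called. The difference between the Tet3-/- and XX transitions was called for 0 members by limma, with 0.661% of all genes called. At an unadjusted p under 0.05 there were 2 of 10 members and 1646 of all 14972 genes. Without both libraries the difference was called for 3, Dusp4 (0.43, 0.0305), Egr1 (0.44, 0.0456) and Spry4 (-0.81, 0.00302), with 6.1% of all genes called. Without Tet3-/- EpiLC library 3 alone it was called only for Spry4 (-0.81, 0.00282), with 1.27% of all genes called.

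**Figure D4:**
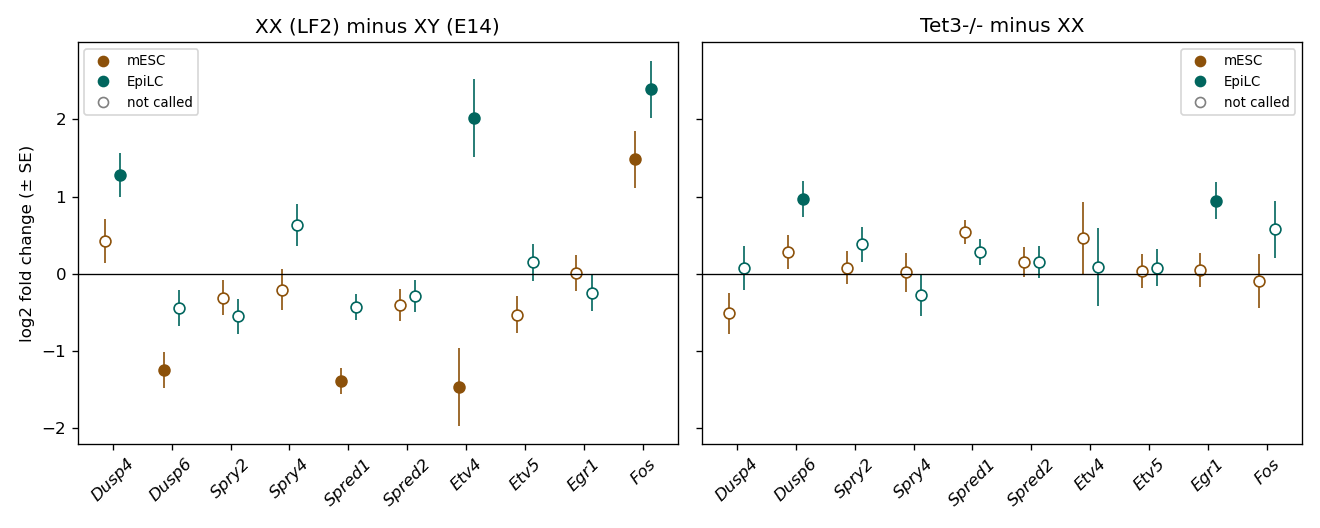
Log2 fold change with its standard error of each gene in XX (LF2) against XY (E14) cells, left, and in Tet3-/- against XX cells, right, in mESC (brown) and EpiLC (green); filled points were called by limma. Etv4 lies at -1.46 in mESC and 2.02 in EpiLC on the left, and on the right only Dusp6 and Egr1 in EpiLC are filled.

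Other genes of the pathway were followed as lists. Of 12 other feedback regulators listed, 10 were tested: Dusp2 did not pass the filter and Spry3 was not found in the summed table. Of the 10, 8, 7 and 9 rose and 1, 2 and 1 fell in the XX, XY and Tet3-/- transitions. Their median log2 fold change was 1.21, 0.60 and 1.65. Of all genes tested, 50.4%, 51.4% and 52.4% were called, with a median of -0.02, -0.00 and 0.00. Spry1, another Sprouty gene, rose by 2.65, 0.88 and 2.55, and Lrig1, a membrane protein that restrains receptor tyrosine kinases, fell by 1.75, 1.22 and 1.98, the XY call of Lrig1 being lost without scaling (-0.68). Dusp5, a nuclear phosphatase of ERK, rose by 2.23 in XX and 1.94 in Tet3-/- cells.

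Dusp9, an X-linked phosphatase of ERK (chromosome X, 73639419 to 73643514), was abundant in XX mESC, at 24.2 ± 0.680 (SD, n = 3) scaled TPM, while XY mESC had 1.46 ± 0.224 (SD, n = 3), a log2 difference of 3.36 ± 0.17 (SE; limma adjusted p 1.92e-09). In EpiLC it had 54.6 ± 0.821 (SD, n = 3) and 14.4 ± 1.07 (SD, n = 3), a difference of 1.86 ± 0.17 (5.66e-07). Its rise was larger in XY than in XX cells, with a difference between transitions of -1.50 ± 0.24 (0.000322). In Tet3-/- mESC it had 13.2 ± 4.01 (SD, n = 4), a log2 value of -0.87 ± 0.16 against XX (0.00747; -0.60 and 0.526 without scaling), and in Tet3-/- EpiLC 55.7 ± 9.65 (SD, n = 3), a value of 0.01 ± 0.17 (0.986). In mESC, Dusp9 was thus higher in XX than in XY cells, where Dusp6 and Spred1 were lower.

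Of 16 other immediate early genes listed, 12 were tested, and Egr2, Egr3, Fosb and Fosl1 did not pass the filter. Of the 12, 10 rose and 0 fell in the XX and in the Tet3-/- transition, and 8 rose and 2 fell in the XY transition. Of all genes tested, 50.4%, 52.4% and 51.4% were called in the XX, Tet3-/- and XY transitions, in either direction. The median log2 fold change of the 12 was 1.77, 1.93 and 0.68 in that order. Ier3, an early response gene, rose by 3.04, and Atf3 and Junb, bZIP factors of the ATF and JUN families, rose by 2.53 and 2.36 in XX cells. In XY cells Nr4a1, a nuclear receptor, and Klf10, a zinc finger repressor, fell by 0.96 and 0.89; without scaling neither was called (-0.44 and -0.29). In EpiLC, where 33.8% of all genes were called, 8 of the 12 were higher in XX than in XY cells and 0 lower, Ier3 by 2.76, Junb by 1.96 and Klf10 by 1.58. The XX transition exceeded the XY transition for 8 of the 12 by that test (23.7% of all genes called), with Ier3 at 2.70, Nr4a1 at 1.70 and Fosl2 at 1.39; it was called for 0 of 12 between Tet3-/- and XX cells. Of the immediate early genes among the members, Fos was higher in XX EpiLC, and Egr1 had a value of -0.24 (limma adjusted p 0.471), with every XX library below every XY library.

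**Figure D5:**
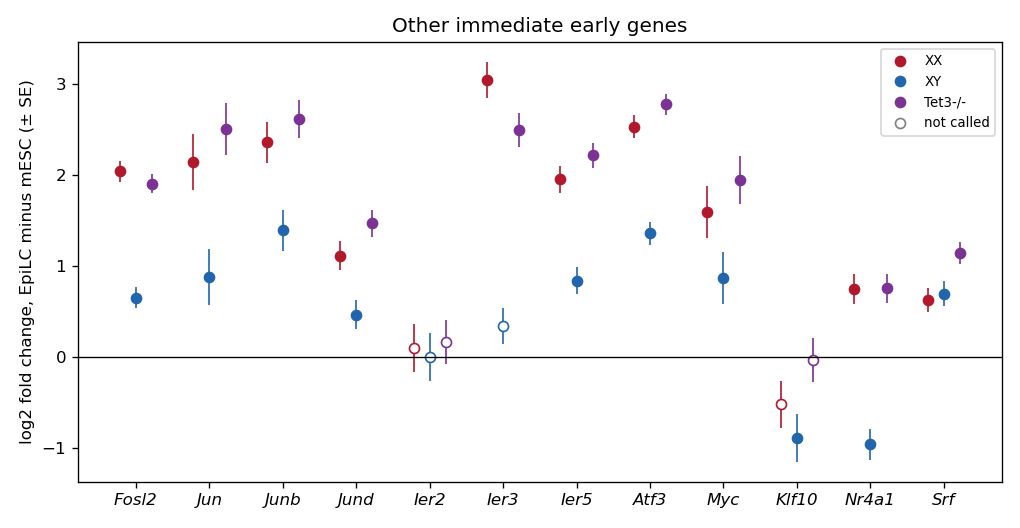
Log2 fold change from mESC to EpiLC with its standard error for the 12 tested genes of the other immediate early list in XX, XY and Tet3-/- cells; filled points were called by limma. Ier3 stands at 3.04 in XX cells, and Nr4a1 and Klf10 lie below 0 in XY cells.

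Of the 24 genes of the ERK cascade itself, 10 rose in each transition and 4, 5 and 4 fell in XX, XY and Tet3-/- cells, with medians of 0.39, 0.22 and 0.13; the share called was near that of all genes. The FGF receptor genes Fgfr1 and Fgfr2 rose by 1.35 and 1.63 in XX cells and by 2.43 and 2.59 in XY cells, and the adaptor Shc1 rose by 1.79 in XX cells. Map2k1, which encodes MEK1, fell by 1.03 in XX and 0.73 in Tet3-/- cells, the XX call being lost without scaling (-0.82). Of 9 further ETS genes, 3, 4 and 3 rose and 1, 2 and 2 fell, where 50.4%, 51.4% and 52.4% of all genes were called. Gabpa fell by 1.24, 0.61 and 1.1, although its XY value was 0.04 without scaling, and Ets1 rose by 2.73 in XY cells.

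As a description over the 19 libraries, which share group means and scaling, the gene whose log2 level was most like that of Dusp6 was Lmo4 (Pearson r 0.985), followed by Epha1, Ppp4r4, Map7d1 and Shb (0.982 or more), among 8938 candidates. For Spry4, genes among the closest were Col5a1 (0.938), Mapk6, Plec and Ppp1r18 (0.934 or more). Among the members Dusp4 and Dusp6 had r 0.920, Dusp6 and Spred1 0.961, and Dusp6 and Etv5 -0.820. Fos had r between -0.37 (Etv5) and 0.55 (Dusp4) with the other members.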

How the data were processed

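RNA of 19 libraries of 6 groups was measured after ribosomal RNA depletion with a stranded kit, per the labels' protocols, from RNA with an integrity number of at least 9. The authors deposited TPM values for 140948 transcripts, each library summing to 1000000; per the submitters' processing notes, FastQC 0.11.7, Trimmomatic 0.35, Salmon 1.1.0 and GRCm38 were used, and the annotation release is not given in the sources used here. TPM keeps no depth, so no counting interval is given.

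Transcripts were summed per gene with GENCODE M21; 139357 matched with version, 495 without, and 1096 were left out. Values were divided by median-of-ratios factors over 13815 genes above 0 in every library. The 14972 genes reaching TPM 1 in 3 or more libraries were fitted as log2(scaled TPM + 1) with limma 3.58.1 (R 4.3.3; lmFit, eBayes with trend) over all libraries, with 9 contrasts and Benjamini-Hochberg adjustment over all genes. Deposited TPM without scaling is an alternative: the median of all genes then shifted by 0.14 (XX), 0.54 (XY) and -0.13 (Tet3-/-) from mESC to EpiLC. The fit was also run on simulated data with independent libraries and few changed genes. That setting is unlike these data, so it does not check the error rates here.

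The members and lists were chosen with earlier results of these data known. List genes named are, per transition, the 3 highest and 3 lowest called whose group means reach 5 scaled TPM in 1 group and whose libraries do not overlap; in other contrasts, at most 3 called in each direction; and Dusp9. The genes most like Dusp6 and Spry4 are the 5 highest by Pearson r. One of them is not reported here. Replicate numbers were not taken to pair samples. Alternatives were other scalings, a pseudocount of 0.1, other filters, fits of only the groups compared, no trend, a replicate block, a fold limit, and each library left out.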

Additional observations from a re-analysis of the deposited data

Results flagged for a closer look

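In Tet3-/- mESC, library 2 lay above the other 3 for 2 members and 1 transcript, by a gap that was large against the group's range. Dusp6 had 1.16 scaled TPM there and 0.214 to 0.351 in the others, Etv4 had 2.57 against 0.0887 to 0.279, and the transcript Etv5-203 had 43.9 against 37.7 to 38.6, where the others lay close together. The gap to the nearest library was 0.855, 0.923 and 0.853 of the range, above Dixon's 95% critical value for 4 samples. Only this group has 4 libraries, and the groups of 3 were not screened, so no other group could be flagged. In it 13 sets of 4 values were examined, and chance passes this limit in about 1 of 20 sets.

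The change from mESC to EpiLC differed between XX and XY cells, by limma's test of that difference, for Etv4 (3.48 on the log2 scale) and Spred1 (0.96) among the members. Among other feedback regulators it was 2.35 for Dusp1, 1.76 for Spry1 and 1.66 for Dusp5, which rose more in XX cells, and -1.50 for Dusp9 and -1.17 for Spred3. Among other immediate early genes it was 2.70 for Ier3, 1.70 for Nr4a1 and 1.39 for Fosl2.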

How the results depend on the processing

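Of the 34 called values of members, 24 kept their call and direction under every alternative that tested the gene. Among them were all called values of Dusp6, Dusp4, Etv5, Spred1 and Etv4 in the transitions. The filter at TPM 5 left 8 members, so Spry4 and Egr1 were not tested under it. No called value changed sign. Members called between Tet3-/- and XX EpiLC numbered 2 (5.46% of all genes). The number was 0 on deposited TPM without scaling (1.08%), rescaled over protein-coding genes (4.36%) and without a filter (1.39%). It was also 0 with only the groups compared (2.7%) and with a log2 fold limit of 1, and 1 with a pseudocount of 0.1 (4.79%). With a filter at TPM 5 (5.88%) it was 1 of 8 members tested, which do not include Egr1. Leaving out each library gave 0 to 2 (2.44% to 6.39%). It was 0 without any 1 of the XX EpiLC replicates 1, 2 and 3 (2.44% to 3.15%). Between Tet3-/- and XX mESC 0 were called (3.18% of all genes), and 1 with a pseudocount of 0.1 (2.71%). Leaving out each library gave 0 to 1 (1.27% to 10.6%), and leaving out both libraries that stood apart gave 2 (17.8%). XX against XY mESC gave 4 (31.3% of all genes), and 7 without both libraries (46.4%). XX against XY EpiLC gave 3 (33.8% of all genes), but 5 unscaled (47.2%), 5 with quantile normalization (38.2%) and 10 with only the groups compared (57.7%). The test of XX against XY transitions gave 2 (23.7% of all genes), but 1 unscaled (16%), 1 rescaled over protein-coding genes (17.6%) and 1 with the fold limit. It gave 4 with a pseudocount of 0.1 (21.6%), 6 with only the groups compared (26.6%) and 6 without both libraries (37.5%). The test between Tet3-/- and XX transitions gave 0 to 1 with each library left out (0.354% to 2.41% of all genes). It gave 1 without Tet3-/- EpiLC library 3 (1.27%) and 3 without both libraries (6.1%). Values that changed sign were not called in the main fit: for the XY transition Etv4 (0.0023 unscaled), Fos (-0.032 with quantile normalization, -0.056 to 0.16 with each library left out) and Spred2 (-0.084 to 0.20), for the Tet3-/- transition Spred2 (-0.094 to 0.42, and -0.094 without both libraries), and for Tet3-/- against XX EpiLC Dusp4 (-0.014 unscaled, -0.082 rescaled over protein-coding genes, -0.38 to 0.32, and -0.38 without both). The cause was not tested.

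With the replicate block the members called in the XX, XY and Tet3-/- transitions numbered 8, 6 and 9, as without it. Of all genes 48.9%, 50.1% and 48.5% were then called. In XX against XY mESC 3 members were called with the block (30.4% of all genes), and Etv4 had -1.46 (limma adjusted p 0.0502). The test of XX against XY transitions gave 3 with the block (20.4% of all genes), Dusp6 being added (0.80, 0.042). Etv5-201 was then called in the Tet3-/- transition (0.90, 0.00555). Same-numbered libraries deviated together with correlations of 0.07, -0.20 and 0.31 in XX, 0.35, -0.20 and 0.55 in XY and 0.52, 0.41 and -0.16 in Tet3-/- cells, so the number alone was not taken as a pairing. Without scaling, calls over all genes in the XY transition were 81.5% higher, against 51.3%, and in the XX transition 61.2%, against 48.6%. Levels under about 1 TPM, as for Spry4 and Egr1, carry unknown counting error.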
